A study of Mus musculus with 8 samples.

Results

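Cytoplasmic ribosomal protein genes were examined as a set of housekeeping promoters in mouse leukaemia cells profiled by ATAC-seq, in which a transposase cuts and tags open DNA. The set was a list of 51 genes, 29 of the large and 22 of the small ribosomal subunit, out of 21887 protein-coding genes. A peak was assigned to a gene when its summit lay in the gene's body or within 1000 bp of it on the mm10 build. By this rule 435 of the 144372 peaks of the series belonged to the 51 genes.

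The cells were acute myeloid leukaemia cells carrying the MLL-AF9 fusion, a GFP marker and TetO-Klf4, a Klf4 transgene that doxycycline switches on. They were sorted by GFP from the marrow of leukaemic mice at 0, 6, 12 and 24 hours, 2 libraries each, so all 4 groups share the fusion and the transgene. The labels give C57BL/7 under cell line, leave unsaid if doxycycline had been given by 0h, and do not tie the libraries of a time to separate mice. Each p-value therefore measures only how these libraries vary, and that variation may be technical.

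Ribosomal proteins are made in near-equal numbers in every growing cell, and their genes are among the most strongly transcribed. Their promoters are short, rich in CpG and mostly without a TATA box. Transcription of many of them begins at a cytosine within a run of pyrimidines, the 5′ terminal oligopyrimidine tract through which mTOR signalling controls translation of the mRNAs.

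Lists held 14826 to 21903 peaks per library on the main chromosomes. Total read counts are not known from such lists, so depth was read from the background of each list, which was 2.67 tags per kb in the first 0h library, 1.5 in the second and between them in the other 6. By this measure the second 0h library is the lowest, and the 0h pair is the most uneven. Of 16 leukaemic myeloid marker genes, 5 to 10 had a peak per library, with Mpo, Elane and Csf3r at 0 in every library. Markers of other lineages with a peak numbered 0 to 2 of 8 for B cells, 3 of 8 for T and NK cells, 2 of 8 for erythroid cells, 1 to 2 of 8 for megakaryocytes and 1 to 4 of 8 for stroma and endothelium. In that order, 0, 2, 2, 1 and 1 of these markers had a peak in all 8 libraries, and 6, 4, 6, 6 and 4 had none in any library. The Klf4 gene had a peak in all 8.

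The promoters of 8 of these genes are shown to set both ends of the ranking side by side. They are the 4 members with the highest and the 4 with the lowest fold enrichment among those with a RefSeq entry, and 42 of the 51 members have one. Each sequence holds 250 bases before the annotated start and 30 bases from it, on the gene's strand, from RefSeq GRCm38.p6, the assembly of mm10. Capitals mark matches to any of the searched motifs, which are spelled out with their shares further on. The 4 promoters from the high end lie at chr9:120127516-120127795 (Rpsa, plus strand), chr11:101441995-101442274 (Rpl27, plus strand), chr4:152325476-152325755 (Rpl22, plus strand) and chr14:18270957-18271236 (Rpl15, minus strand).
Rpsa: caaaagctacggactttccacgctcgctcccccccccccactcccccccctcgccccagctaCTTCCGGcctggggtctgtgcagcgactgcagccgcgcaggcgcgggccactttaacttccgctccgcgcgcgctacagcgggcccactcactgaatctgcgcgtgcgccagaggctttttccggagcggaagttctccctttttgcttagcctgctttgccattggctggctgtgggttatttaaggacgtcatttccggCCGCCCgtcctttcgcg
Rpl27: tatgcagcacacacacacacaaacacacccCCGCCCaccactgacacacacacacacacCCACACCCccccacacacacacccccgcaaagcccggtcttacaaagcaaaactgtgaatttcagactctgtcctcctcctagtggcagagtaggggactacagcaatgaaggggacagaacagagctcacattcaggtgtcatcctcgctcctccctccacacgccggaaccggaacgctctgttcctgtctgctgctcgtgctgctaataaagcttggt
Rpl22: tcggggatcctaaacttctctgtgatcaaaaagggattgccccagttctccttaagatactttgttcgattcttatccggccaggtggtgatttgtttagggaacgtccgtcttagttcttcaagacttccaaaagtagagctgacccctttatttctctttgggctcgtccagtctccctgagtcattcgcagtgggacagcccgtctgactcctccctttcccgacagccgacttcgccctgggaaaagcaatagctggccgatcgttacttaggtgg
Rpl15: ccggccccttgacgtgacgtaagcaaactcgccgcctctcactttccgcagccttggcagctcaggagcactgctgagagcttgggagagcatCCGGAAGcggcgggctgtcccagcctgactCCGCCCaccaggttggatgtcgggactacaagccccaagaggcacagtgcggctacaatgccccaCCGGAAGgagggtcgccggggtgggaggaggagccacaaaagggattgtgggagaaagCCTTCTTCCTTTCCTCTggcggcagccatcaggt

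The 4 promoters from the low end lie at chr2:39005102-39005381 (Rpl35, minus strand), chr7:3703791-3704070 (Rps9, plus strand), chr2:32961462-32961741 (Rpl12, plus strand) and chr9:64173137-64173416 (Rpl4, plus strand). For Rpl4 the ranked peak lay at this promoter in 4 libraries only, and at the start of its neighbour Snapc5 in the other 4. Rpl18 would stand here in place of Rpl4 if ranked by the peak at its start in the RefSeq table. This alternative was added after seeing the data.
Rpl35: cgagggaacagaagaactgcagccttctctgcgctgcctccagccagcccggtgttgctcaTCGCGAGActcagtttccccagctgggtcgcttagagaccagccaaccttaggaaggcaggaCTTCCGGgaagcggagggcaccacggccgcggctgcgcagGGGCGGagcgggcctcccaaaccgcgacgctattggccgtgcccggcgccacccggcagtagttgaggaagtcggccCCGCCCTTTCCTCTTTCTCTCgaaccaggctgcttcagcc
Rps9: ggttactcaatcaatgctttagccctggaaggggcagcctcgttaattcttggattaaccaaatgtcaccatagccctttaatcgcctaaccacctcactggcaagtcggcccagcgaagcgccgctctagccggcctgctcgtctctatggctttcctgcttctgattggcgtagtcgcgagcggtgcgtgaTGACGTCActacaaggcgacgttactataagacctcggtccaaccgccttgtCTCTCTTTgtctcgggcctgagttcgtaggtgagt
Rpl12: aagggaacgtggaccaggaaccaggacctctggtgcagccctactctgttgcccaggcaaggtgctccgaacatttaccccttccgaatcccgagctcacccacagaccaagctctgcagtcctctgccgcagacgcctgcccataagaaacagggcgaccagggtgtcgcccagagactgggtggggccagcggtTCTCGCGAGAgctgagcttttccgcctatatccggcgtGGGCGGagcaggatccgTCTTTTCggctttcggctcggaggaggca
Rpl4: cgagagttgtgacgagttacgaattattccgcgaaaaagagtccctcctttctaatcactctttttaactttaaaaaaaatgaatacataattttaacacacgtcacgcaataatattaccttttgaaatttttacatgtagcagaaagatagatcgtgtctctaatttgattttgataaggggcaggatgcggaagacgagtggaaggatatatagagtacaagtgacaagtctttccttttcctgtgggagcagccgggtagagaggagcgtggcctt

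Positions in these promoters are counted from the annotated start base as 0, with negative numbers upstream. Rpsa held an ETS match at -188 to -182 and an SP1 match at 13 to 18. Rpl15 held ETS matches at -157 to -151 and at -62 to -56, an SP1 match at -127 to -122, and a pyrimidine run at -4 to 12. Rpl27 held an SP1 match at -220 to -215 and a KLF match at -191 to -184, and Rpl22 held none of the searched motifs. Among the promoters from the low end, Rpl35 held ETS, ZBTB33, 2 SP1 matches and a pyrimidine run, Rpl12 held ZBTB33 on both strands, SP1 and a pyrimidine run, and Rps9 held a CRE and a pyrimidine run. Rpl4 held none. So each of the sets contains 1 promoter with no match, and the ETS motif occurs in both.

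Nearly every ribosomal protein gene was open at every time. A peak was present in all 8 libraries at 48 of the 51 genes, 94.1%, against 8822 of the 21887 protein-coding genes, 40.3%. In the order of the libraries, first and second at 0h, 6h, 12h and 24h, the genes with a peak numbered 51, 49, 50, 51, 50, 51, 51 and 50. Every one of the 51 genes had a peak in at least 5 libraries. Genes are counted here only by presence, so the share depends on the authors' peak threshold.

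The 3 exceptions were Rpl8, Rpl19 and Rps9. Rpl8, whose protein lies near the peptidyl transferase centre, had a fold enrichment of 7.72 and 6.66 at 0h, 6.01 in the second library of 6h, 6.99 in the second of 12h and 5.38 in the first of 24h. It had no peak in the first libraries of 6h and 12h and the second of 24h. Fold enrichment is the authors' ratio of summit pile-up over local background, and it is on no common scale between libraries. At 3 of the 4 times Rpl8 thus had a peak in 1 of the 2 libraries.

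Rpl19, a large subunit protein that forms a bridge to the small subunit, and Rps9, a small subunit protein near the mRNA entry, each lacked a peak only in the second 0h library. Rpl19 had a fold of 8.88 in the first 0h library, 8.45 and 7.40 (6h), 10.9 and 6.38 (12h), then 9.36 and 11.5 (24h). Rps9 had a fold of 7.92 in the first 0h library, 8.88 and 5.77 (6h), 8.93 and 5.66 (12h), then 7.77 and 8.66 (24h). The missing library is the one with the lowest background, and the part of depth in its missing peaks was not tested.

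Related gene sets of the ribosome and of translation gave shares from 73.1% to 97.5%. Of 36 other cytoplasmic ribosomal protein genes, 31 (86.1%) had a peak in all 8 libraries. Rpl10l and Rpl39l, paralogues best known from testis, had none in any library, while Rpl36a had one in 7, Rpl37a in 6 and Rps4x in 5. Mitochondrial ribosomal protein genes, which serve the separate ribosome of mitochondria, had one in all 8 for 57 of 78 genes (73.1%). Translation factors did so for 39 of 40 (97.5%), all but the initiation factor gene Eif3c with 7 libraries. Ribosome biogenesis genes did so for 37 of 40 (92.5%), the exceptions being Nop10 in 2 libraries, Pes1 in 6 and Rrp12 in 7. Mitochondrial genes without all 8 were 21, among them Mrpl11 in 6, Mrpl13 in 7, Mrpl15 in 7 and Mrpl16, Mrpl21 and Mrpl22 in 5 each.

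Peaks at the 51 genes were stronger than most peaks of their own list, yet not among the very strongest as a set. To compare libraries, the strongest peak of each gene was given its percentile of fold enrichment within its library's list. The median over the 51 genes was 80.4 and 77.3 (0h), 80.3 and 75.2 (6h), 79.0 and 81.8 (12h), then 77.8 and 78.5 (24h). Of the genes with a peak, 41 to 48 per library lay above the median of their list and 10 to 14 lay in its top decile. The median fold of these genes was 10.2 to 11.7, against 7.65 to 8.63 for all peaks of a list. Taking the strongest of several peaks raises a gene's value, and the same was done for all protein-coding genes, whose per-library medians over genes with a peak were 66.4 to 72.5.

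By time, the median percentile was 78.9 ± 2.19 for 0h, 77.7 ± 3.64 for 6h, 80.4 ± 2.01 for 12h, then 78.1 ± 0.502 for 24h (each SD, n = 2). The times differed by less than the SD at 6h. In the heat map of the fold percentile the genes differ more than the times do.

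**Figure D1:**
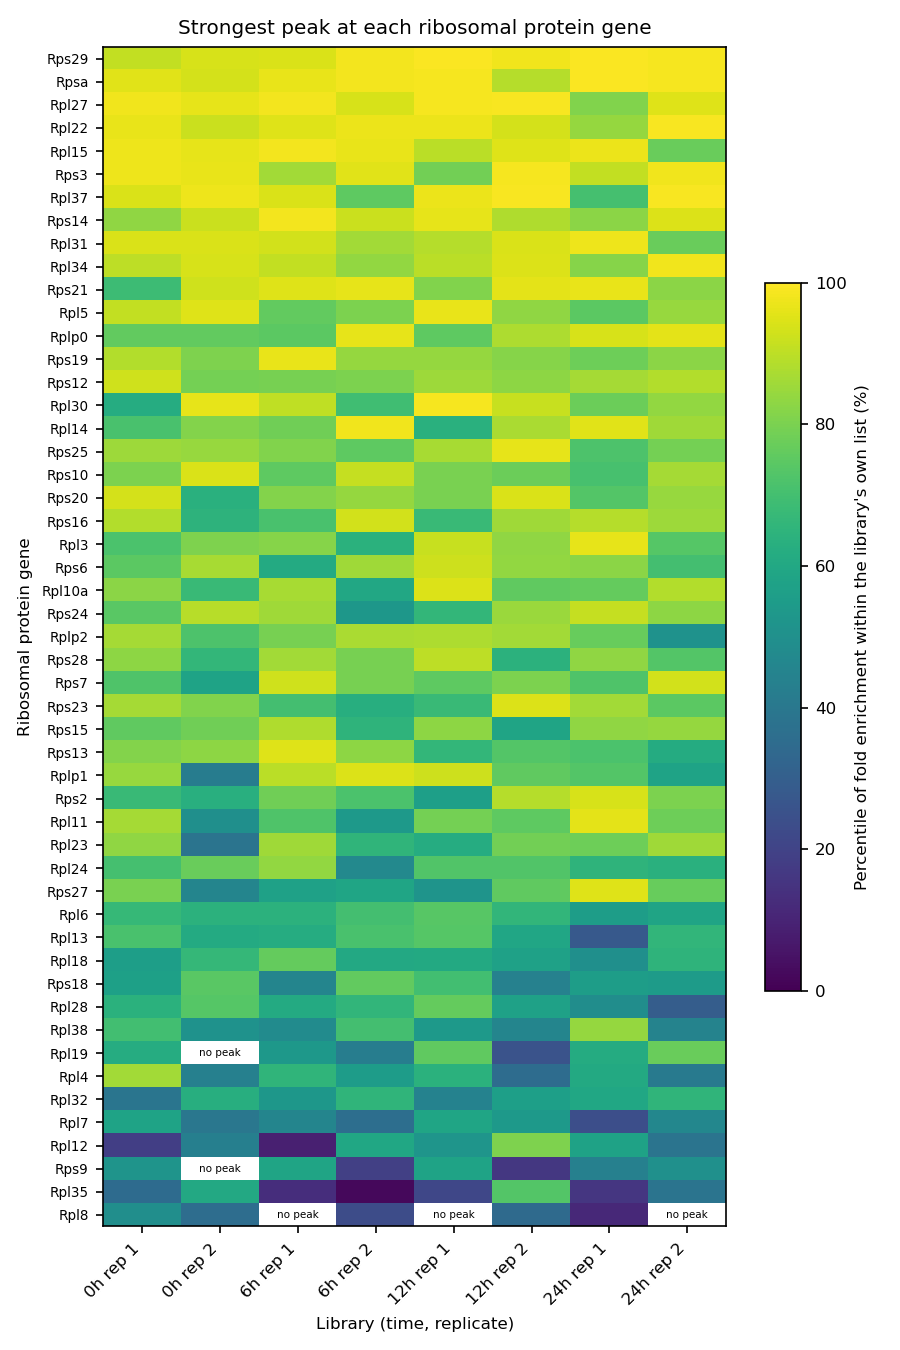
Percentile of fold enrichment within the library's own list (colour, 0 to 100%) for the strongest peak of each of the 51 genes (rows, ordered by their mean) in each of the 8 libraries (columns); white cells have no peak. The rows from Rps29 to Rpl34 stay bright in nearly every column, Rpl35 and Rpl8 are dark in most, and the 5 white cells belong to Rpl8, Rpl19 and Rps9.

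Members differed from each other more than their values changed between libraries. Among the 48 genes with a peak in all 8 libraries, the SD of the gene means was 14.5 percentage points, and the SD of a single gene over its libraries had a median of 10.7, from 3.26 to 24.5. Spearman's rho over these genes was 0.520 to 0.583 for the 4 pairs of libraries of the same time and 0.347 to 0.710 for the 24 other pairs. These are correlations over genes that share libraries, given as a description. Over all 51 genes, a gene's mean difference between libraries of the same time had a median of 13.4 points. Between libraries of different times the median was 12.5. Of the 48 genes, 33 lay above the median of their list in every library, 10 had a mean over 90 and 3 a mean under 50.

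The highest 6 genes by mean percentile were Rps29, Rpsa, Rpl27, Rpl22, Rpl15 and Rps3, with means of 96.6, 96.2, 95.1, 94.3, 93.4 and 92.8. Rps29, a zinc-binding protein of the small subunit, had a fold of 12.5 and 13.2 (0h), 14.1 and 15.7 (6h), 17.8 and 15.2 (12h), then 17.2 and 16.3 (24h). The percentiles of Rps29 were 90.7 and 93.8, 94.2 and 98.1, 99.6 and 98.0, and 99.5 and 98.6 in that order. Both 0h values are thus its lowest, and the 24h and 0h groups do not overlap. The share of all regions with such an order was not counted, so this is a description only.

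Rpsa, whose product is also known as the laminin receptor, had a fold of 13.6 and 13.1 (0h), 14.8 and 15.8 (6h), 16.0 and 12.7 (12h), then 17.8 and 16.4 (24h). Rpl27 had 14.6 and 14.2, 15.8 and 14.1, 15.9 and 16.3, and 11.6 and 14.5. Rpl22, a protein of the large subunit that is dispensable for most cells but not for alpha-beta T cells, had 14.1 and 12.7, 14.3 and 15.1, 15.0 and 13.7, and 12.0 and 16.8. By percentile, Rpsa had 99.6 and 98.6 in the 24h libraries and also 98.6 in the first 12h library. Rpl27 and Rpl22 each had their lowest percentile in the first 24h library, and Rpl22 its highest in the second.

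Rpl15, a core protein of the large subunit, had a fold of 14.5 and 14.1 (0h), 15.7 and 14.9 (6h), 13.1 and 14.1 (12h), then 14.8 and 11.5 (24h). Rps3, which sits where the mRNA enters the small subunit, had 14.5 and 14.3, 12.4 and 14.6, 11.3 and 15.7, and 13.1 and 15.8. The pair of libraries at 12h gave Rps3 both its lowest and its highest percentile, 78.8 and 98.6.

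The lowest 6 were Rpl8, Rpl35, Rps9, Rpl12, Rpl7 and Rpl32, with mean percentiles of 30.9, 32.4, 42.4, 44.9, 45.2 and 55.7. Rpl35, near the exit of the nascent peptide tunnel, had a fold of 6.63 and 8.49 (0h), 5.38 and 4.35 (6h), 5.95 and 10.6 (12h), then 5.71 and 7.54 (24h). Rpl12, at the base of the ribosomal stalk, had 5.40 and 7.15, 5.11 and 8.94, 8.39 and 11.5, and 9.03 and 7.54. Both were lower in the first than in the second library at 0h and at 12h, and their percentile ran from 2.1 to 73.4 for Rpl35 and from 8.8 to 80.5 for Rpl12.

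Rpl7 had a fold of 8.45 and 6.91 (0h), 7.78 and 6.96 (6h), 9.0 and 8.57 (12h), then 6.31 and 8.26 (24h). Rpl32 had 6.88 and 8.69, 8.38 and 9.54, 7.75 and 8.81, and 9.21 and 10.2. Both proteins belong to the large subunit, as do 5 of the 6 genes at the low end. A low fold did not go with a narrow peak at Rpl7, whose peak reached 1483 bp in the first 6h library and had a median of 799.5 bp. The genes between the highest and lowest 6 had mean percentiles from 56.4 at Rpl4 to 90.9 at Rpl37 and Rps14.

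For Rpl4 and Rpl18 the mean depends on which peak is taken. Their own start here is the one in the RefSeq table. In 4 and 6 libraries their strongest peak lay elsewhere, for Rpl4 at the start of Snapc5. For Rpl18 it lay near the upstream end of its gene body. A start of Sphk2 lies within 1000 bp of both Rpl18 regions, so it does not tell them apart. The peak at their own start gave a mean percentile of 46.0 ± 20.3 (SD, n = 8) in place of 56.4 for Rpl4 and of 44.6 ± 18.1 (SD, n = 8) in place of 61.5 for Rpl18. By these values Rpl18 would be among the lowest 6 and Rpl32 would not, and Rpl4 would come just after them.

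Genes of the small subunit sat somewhat higher than those of the large subunit. The per-library median percentile was 79.8 to 84.4 for small and 69.5 to 77.3 for large subunit genes, so the ranges of the 8 libraries do not overlap. Among genes with a peak in all 8 libraries, a mean over 75 was found for 19 of 21 small subunit genes (90.5%) and 14 of 27 large subunit genes (51.9%), against 50.3% of the 8822 protein-coding genes with a peak in all 8. The genes of a subunit share their libraries and are not replicates, so no test was made of this difference.

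Several members are known for roles in blood disease or growth control. Rps19 and Rps14, mutated or deleted in Diamond-Blackfan anaemia and the 5q- syndrome, had mean percentiles of 84.5 and 90.9. Rpl5 and Rpl11, which with the 5S RNA bind Mdm2 and stabilise p53, had means of 85.2 and 73.8. Rps6, the target of S6 kinase, had 79.7. The stalk genes Rplp0, Rplp1 and Rplp2, which recruit elongation factors, had 84.5, 76.3 and 78.4. Rpl38, needed for translation of Hox mRNAs in mouse embryos, had 58.4 but a wide peak with a mean width percentile of 92.2.

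Against related gene sets, the 51 genes ranked between translation factors and the rest. The median of the gene means, over genes with a peak in all 8 libraries, was 78.8 for the 51 genes, 70.4 for other cytoplasmic ribosomal proteins, 71.6 for mitochondrial ribosomal proteins, 81.8 for translation factors, 74.1 for ribosome biogenesis and 75.1 for all protein-coding genes. Among the other cytoplasmic genes, the mean was 48.1 for Rpl35a and 94.0 for Rps26, and both values lie within the members' range. No test was made between these sets.

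**Figure D2:**
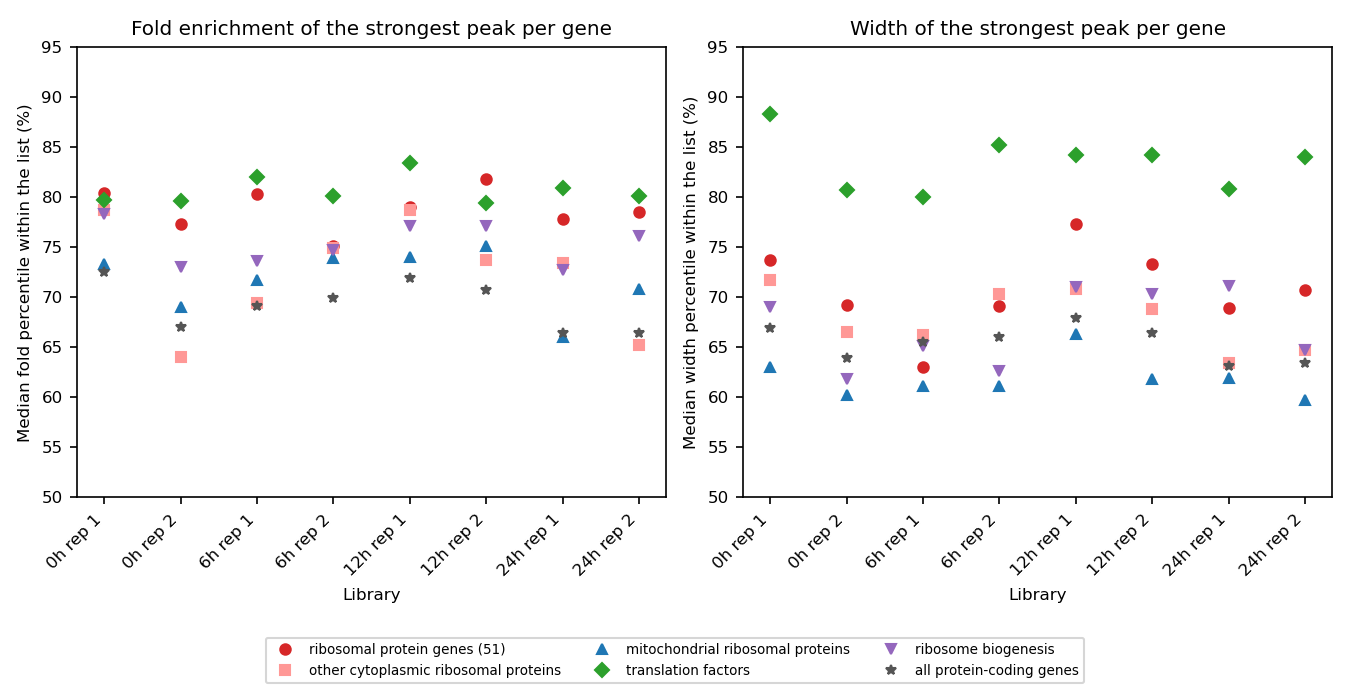
Median percentile within the library's own list (%, axis from 50 to 95) of fold enrichment (left) and width (right) of the strongest peak per gene, for 6 gene sets in the 8 libraries; each point is the median over the genes with a peak in that library. The 51 genes (red) lie at 75.2 to 81.8 for fold and 63.0 to 77.3 for width, above all protein-coding genes (stars) in every library for fold and in 7 of 8 for width.

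Peaks at ribosomal protein genes were also wider than the median peak of each list, but close in width to those of protein-coding genes at large. Over genes with a peak in all 8 libraries, the median of the mean width percentiles was 70.25, against 69.3 for all protein-coding genes. It was 81.9 for translation factors, 65.8 for other cytoplasmic and for mitochondrial ribosomal proteins, and 56.8 for ribosome biogenesis. Their median width was 648 and 381 bp (0h), 454.5 and 507 bp (6h), 612.5 and 575 bp (12h), then 497 and 524 bp (24h). All peaks of the same lists had medians of 460, 282, 370, 375, 398, 402, 376 and 388 bp in that order. The libraries with narrow peaks at these genes also have narrow peaks elsewhere, and the second 0h library is the narrowest in both. Within that library's list the median width percentile was 69.2, between the 63.0 of the first 6h library and the 77.3 of the first 12h library.

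By time, the median width was 514.5 ± 189 bp for 0h, 480.8 ± 37.1 bp for 6h, 593.8 ± 26.5 bp for 12h, then 510.5 ± 19.1 bp for 24h (each SD, n = 2). The spread at 0h exceeds every difference between times. Of the 48 genes with a peak in all 8 libraries, 26 were narrowest in the second 0h library and 20 were widest in the first. Median pile-up at the summits was 34 and 18 reads in these libraries and 24 to 34 in the other 6, and the part of depth in the widths was not tested.

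**Figure D3:**
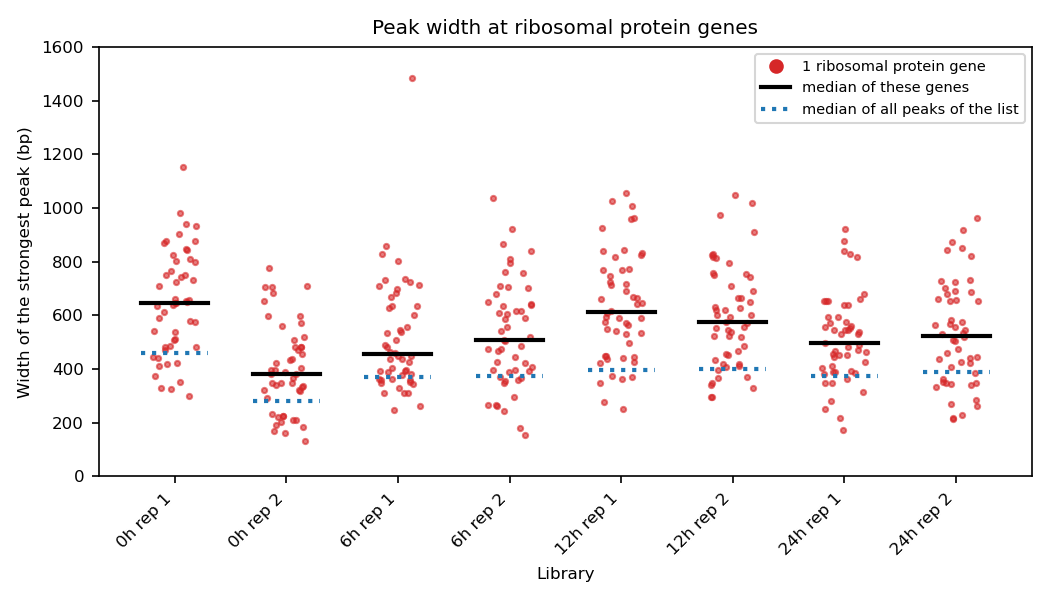
Width in bp of the strongest peak of each ribosomal protein gene (red points) in the 8 libraries, with the median of these genes (black bar) and of all peaks of the list (dotted blue bar); points are spread sideways only for legibility. The black bar is above the blue bar in all 8 libraries, and both are lowest in the second 0h library, at 381 and 282 bp.

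The widest peaks by mean width percentile were at Rps19 (93.9), Rps29 (93.5) and Rpl14 (93.4). Rps19 measured 905 and 706 bp (0h), 698 and 865 bp (6h), 841 and 910 bp (12h), then 839 and 872 bp (24h). Rps29 measured 1154 and 381 bp, 829 and 922 bp, 1055 and 1048 bp, and 921 and 919 bp. Rpl14 measured 939 and 653, 858 and 761, 926 and 742, and 827 and 821 bp. Apart from the second 0h library the Rps29 peak kept a width over 800 bp.

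The narrowest were Rpl8 (27.9), Rpl24 (35.6) and Rpl18 (38.9). Rpl8 measured 325 and 333 bp at 0h, 182 bp in the second 6h library, 296 bp in the second 12h library and 172 bp in the first 24h library. Rpl24, the gene mutated in the Belly spot and tail mouse, measured 441 and 169 bp, 360 and 356 bp, 349 and 328 bp, and 250 and 218 bp from 0h to 24h. Rpl18 measured 418 and 211, 363 and 397, 251 and 340, and 216 and 385 bp. The 397 and 385 bp are from the region at the Rpl18 start in the RefSeq table. The other 6 are from that at the upstream end of the gene body, where these 2 libraries measured 226 and 231 bp. A start of Sphk2 lies within 1000 bp of both regions. At its own start the Rpl18 peak measured 235 to 566 bp, with a mean width percentile of 50.9, and would not be among the narrowest 3. For Rpl24 both 24h widths were below both 6h and both 12h widths, but the 0h pair spans all of them. The share of all regions with such an order was not counted.

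Summits sat just upstream of the annotated starts, as did those of protein-coding genes at large. For 40 genes with a start in the RefSeq table and a peak in all 8 libraries, the median distance was -36.25 bp. For 7245 protein-coding genes chosen alike it was -38.5 bp. Of the 40, 31 (77.5%) had their median summit upstream, against 64.4% of the 7245. Where a gene has several annotated starts, as 7 members do, the one nearest to the median summit was taken. Summits lay within 200 bp of the start for 36 of the 40 (90%), against 71.7% of the 7245. The others were Rplp2, Rps19 and, with a strongest peak away from their own start in some libraries, Rpl4 and Rpl18. A summit moved over the libraries by a median range of 105.5 bp, against 153 bp for the 7245. In the related sets of ribosome and translation genes, 69.0% to 89.5% of summits lay upstream and 79.3% to 93.55% within 200 bp. Their median range was 105 to 155 bp, so the members lie within the related sets in each measure. Small subunit genes had 17 of 18 summits upstream with a median of -54 bp, and large subunit genes 14 of 22 with a median of -25 bp.

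Rpsa had the most fixed summit of the set, at -114, -112, -115, -112, -112, -110, -114 and -110 bp from the start, a range of 5 bp. Rpl27 lay between -6 and 54 bp, Rpl22 between 22 and 91 bp and Rpl15 between -196 and -89 bp. Rps19 had its summit farther upstream, between -486 and -117 bp. In the printed promoters, the Rpsa summit thus falls between its ETS match and its start, and the Rpl22 summit falls downstream of its start.

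**Figure D4:**
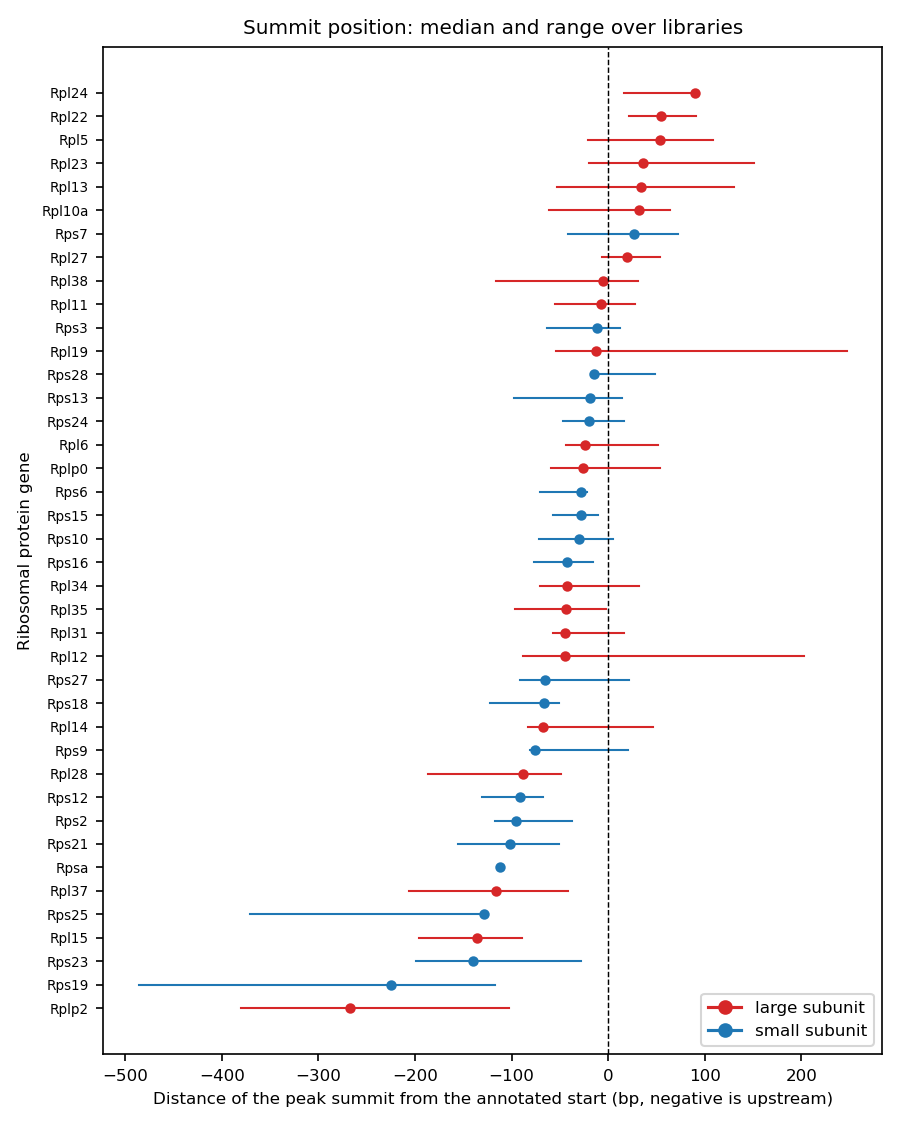
Distance in bp of the peak summit from the annotated start (negative is upstream) for 40 genes with a start in the table whose strongest peak lay in 1 region, Rpl19 and Rps9 with 7 libraries and the others with 8; the dot is the median and the line the range over the libraries. Most dots lie left of the dashed start line, small subunit genes (blue) nearly all of them, and Rpsa has no visible line because its range is 5 bp.

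A few of the genes had more than 1 open region, or share their peak with a neighbour. The 51 genes held 57 regions after peaks of all libraries were merged, of which 50 (87.7%) were found in all 8 libraries, against 28.0% of all 32730 regions. Rpl4 had a region at its start and one at the start of Snapc5, found in 7 libraries, and its strongest peak lay at Snapc5 in the 4 libraries of 0h and 6h and at its own start in the 4 of 12h and 24h, a split noted after the values were seen. At its own start Rpl4 had a fold of 10.7 and 5.39 (0h), 7.5 and 6.54 (6h), 9.52 and 7.06 (12h), then 9.32 and 7.76 (24h). The Snapc5 region had 11.8 and 7.18, 9.62 and 8.53, 8.29 and 4.69, and 8.17 in the first 24h library, with no peak in the second. The 0h and 24h folds overlap at both regions. Rpl18 had its strongest peak near the upstream end of its gene body in 6 libraries. That peak lay 2683 bp from a second region at its start in the RefSeq table, which had a fold of 4.66 to 10.1 and was found in all 8. A start of Sphk2 lies within 1000 bp of both regions. Rps18 had a second region at B3galt4, found in all 8 at a fold of 4.80 to 7.17, and Rpl22 and Rps19 each had one in a single library.

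The main peak also fell within reach of another gene at Rpl15 (Nkiras1), Rpl37 (Card6), Rps25 (Trappc4), Rplp2 (Pidd1), Rps28 (Ndufa7), Rps27 (Rab13), Rps18 (Vps52) and Rpl12 (Lrsam1). A start of the neighbour lies within 1000 bp of the peak on the opposite strand for Ndufa7, Rab13, Vps52, Lrsam1 and, at Rpl18, Sphk2. Openness at these peaks cannot be assigned to a single gene. The mean percentile of the 6 highest of these, Rpl15, Rpl37, Rps25, Rplp2, Rps28 and Rps27, was 93.4, 90.9, 82.5, 78.4, 78.3 and 67.6.

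Ribosomal protein genes have many processed copies in the genome, and none of those named after such a gene carried a summit. Copies with other symbols were not told apart from the other pseudogenes. Of 182 pseudogenes named after a member, 0 had a peak summit inside in any library, and of 318 named after any ribosomal protein gene, 0 did. Of all 10429 pseudogenes in the table, 196 (1.88%) had one. How reads that match several copies were treated is not given in the sources used here.

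Calls of regions that appeared or disappeared with time were few at these genes, as they were among all regions. Of the 57 regions, 50 were found in all 8 libraries and so could not be called. A region was called gained when both libraries of the later time and neither of the earlier had a peak, and lost in the reverse. Of 57 regions, 0 were gained and 0 lost at 6h against 0h, when 1.85% and 2.34% of all regions were. At 12h, 1 was gained and 0 lost, against 4.03% and 1.45% of all regions. At 24h, 0 were gained and 0 lost, against 1.12% and 4.43%, and from 6h to 24h 0 were gained and 0 lost, against 0.972% and 3.55%. Such calls are a description, since 4 libraries in pairs allow no p-value under 0.05.

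The gained region lay just past the downstream end of Rps9, at chr7:3706939-3707410. It had a fold of 5.01 and 4.98 in the 12h libraries and of 5.18 in the second 6h library, and no peak elsewhere. The percentile of these folds in their lists was 7.9 to 11.3. The region is thus among the weakest peaks, and at equal list length it is no longer called.

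Within the regions found in all 8 libraries, no shift in rank with time passed the test at the ribosomal protein genes. Ranks of fold and of width among the 9170 such regions were turned into normal scores, where 1 unit is about 1 SD of all regions, and compared with limma. The Benjamini-Hochberg adjusted p passed 0.05 for 0 of 50 member regions and 0 of all 9170 (0%), in the comparison over all times and in each contrast, for fold and for width. For fold, the smallest adjusted p of a member region was 0.892 over the times, 0.963 at 6h, 0.87 at 12h and 0.843 at 24h against 0h, and 0.99 at 24h against 6h. For width the values were 0.785, 0.864, 0.904, 0.733 and 0.813 in limma's test. Without the first 0h library the smallest for width fell to 0.0889 at 24h and 0.101 at 12h against 0h in limma's test, still with 0 member regions past the threshold.

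At an unadjusted p under 0.05, limma gave for fold 0, 2, 0, 4 and 2 member regions in the same order, and 463, 452, 507, 541 and 432 of all regions. For width it gave 4, 3, 6, 2 and 5 member regions and 495, 518, 473, 609 and 441 of all. In percent, the 4 contrasts of fold gave 4.0%, 0%, 8.0% and 4.0% of members, against 4.93%, 5.53%, 5.90% and 4.71% of all regions. Those of width gave 6.0%, 12% and 4.0% against 0h and 10% at 24h against 6h, where all regions gave 5.65%, 5.16%, 6.64% and 4.81%. The member share thus lay above that of all regions in 1 contrast of fold and in 3 of width, a difference that was not tested. The genes below were chosen after these values were seen. For fold, Rps29, Rplp0, Rps2 and Rps27 had higher ranks at 24h than at 0h, with differences of 1.21 (SE 0.50), 1.3 (SE 0.54), 1.20 (SE 0.56) and 1.17 (SE 0.55), each with an adjusted p of 0.843 by limma. For width, Rplp1 differed most at 24h, by 2.29 (SE 0.53, adjusted p = 0.733 by limma).

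Rplp1 measured 482 and 132 bp in width (0h), 394 and 389 bp (6h), 576 and 552 bp (12h), then 653 and 688 bp (24h). Both 24h widths lie above every earlier one, and the 132 bp is from the second 0h library, where the pile-up was 9 reads. How many of all regions show such an order was not counted. The fold of Rplp1 was 11.6 and 7.08, 13.0 and 14.2, 13.6 and 10.8, and 10.6 and 9.39, with no such order.

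The design limits what such a test could see. Fold scores were simulated with 200 of the 9170 regions shifted at 24h against 0h. There limma recovered 1.0% of shifts of 1 unit, 69.5% of shifts of 2 and 99.5% of shifts of 3. Every simulated region was given the same SD, unlike the regions of the data, so recovery in the data may differ. Width was not simulated. The median SE of a member's difference was 0.54 for fold and 0.46 for width. A shift of about 1 unit, as at Rps29, was thus not detectable here, and its absence is not shown.

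The promoters of the 51 genes lay between all promoters and those of other open genes in base composition. Over 300-base windows, 250 before and 50 from the start, the median GC content was 58.7% for the 42 members with an entry, 62.3% for 7245 genes with a peak in all 8 libraries and 56.7% for all 17492 protein-coding genes. The median number of CpG was 21.5, 23 and 14 in that order. Across 40 members, Spearman's rho of mean fold percentile with GC content was 0.248 and with CpG number 0.08, given as a description over genes that share all libraries.

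Motifs were searched on both strands by their letters, and a match describes sequence only. The ETS motif CCGGAAG was found in 17 of 42 member promoters (40.5%), against 21.1% of the 7245 promoters of genes with a peak in all 8 libraries and 12.1% of all 17492. The ZBTB33 motif TCTCGCGA was found in 5 (11.9%), namely Rpl12, Rpl35, Rps19, Rps28 and Rps6, against 3.15% and 1.54%. Promoters of 24 other cytoplasmic ribosomal protein genes held it in 20.8%, above the share of the members. The SP1 motif GGGCGG was found in 24 (57.1%), against 70.3% and 47.0%. The KLF motif, GGGTGTGG or GGGCGTGG, was found in 4 (9.52%), namely Rpl27, Rps12, Rps15 and Rps24, against 15.7% and 10.6%. The SP1 and KLF letters do not contain each other but can share bases.

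Other motifs were rare in the members. They were found in 3 promoters for CRE, TGACGTCA (7.14%, against 3.56% of open and 2.32% of all promoters), in 4 for the E-box CACGTG (9.52%, against 11.0% and 7.91%), in 3 for TATAAA (7.14%, against 5.53% and 13.2%), in 1 for NRF1, GCGCATGC (2.38%, against 6.61% and 3.68%) and in 1 for YY1, AAGATGGCG (2.38%, against 3.84% and 1.99%). The promoters of mitochondrial ribosomal proteins held NRF1 and YY1 letters in 11.6% each and ETS letters in 34.8%. Those of 24 other cytoplasmic ribosomal protein genes held NRF1 letters in 4.17%, YY1 letters in 12.5% and ETS letters in 33.3%.

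A pyrimidine run was a stretch of at least 5 pyrimidines on the gene's strand, counted from within 5 bases of the start. Bases farther upstream were not counted, so a run may begin before that, as at Rpl35 and Rps9. Such a run was found in 20 members (47.6%), against 26.2% of open and 26.5% of all promoters. Promoters of the 24 other cytoplasmic ribosomal protein genes held one in 45.8%. A cytosine as the first base, a measure added after seeing the data, was found in 17 (40.5%), against 14.3% and 13.7%. Rpl15 and Rpl35 among the printed promoters show such runs around the start.

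Peak ranks were also compared between members with and without a match. The median of the mean fold percentile was 79.1 for 16 members with an ETS match and 78.4 for 24 without, 81.3 for 24 with an SP1 match and 77.5 for 16 without, and 78.2 for 18 with a pyrimidine run and 79.8 for 22 without. The 4 members with KLF letters had 81.5 and the 36 without 78.3. The widest gap was at CRE, with 61.5 for both Rpl13 and Rpl18 against 78.8 for the 38 without. In 6 libraries the Rpl18 value rests on the region at the upstream end of its gene body, outside the searched promoter. The 1 member with YY1 letters had 67.6, against 78.5 for the 39 without. The groups share all libraries, and no test was made between them.

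**Figure D5:**
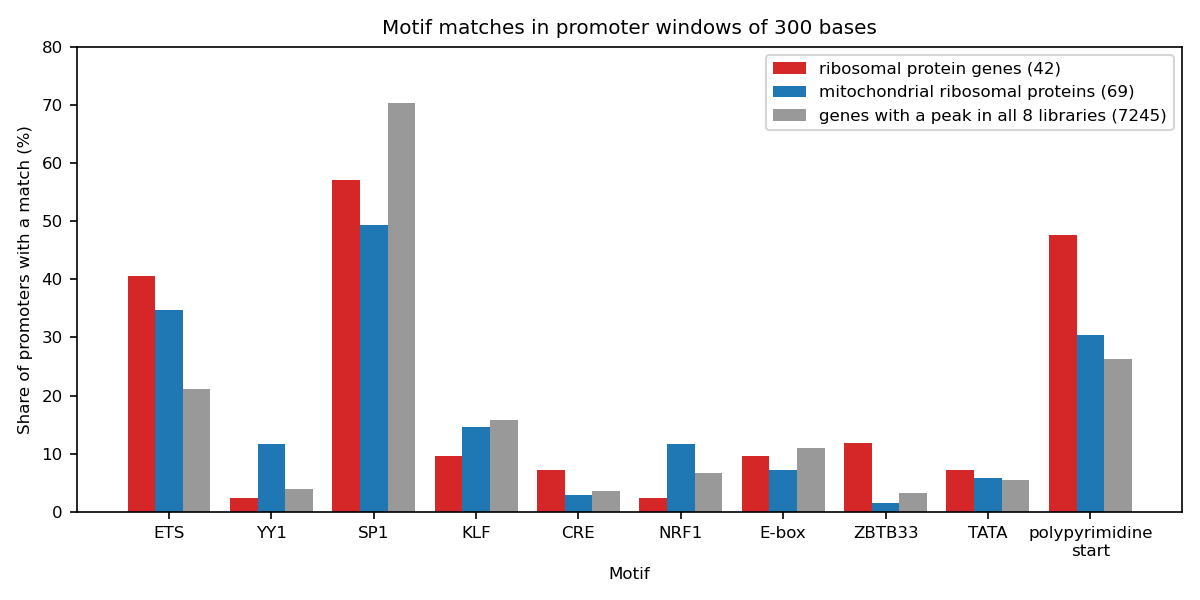
Share of promoter windows of 300 bases with a match (%, bars start at 0) for 10 motifs, in 42 ribosomal protein genes, 69 mitochondrial ribosomal protein genes and 7245 genes with a peak in all 8 libraries. ETS, ZBTB33 and the pyrimidine run are more common in the ribosomal protein genes (40.5%, 11.9% and 47.6%) than in open promoters at large (21.1%, 3.15% and 26.2%), while SP1 is less common (57.1% against 70.3%). In 24 other cytoplasmic ribosomal protein genes, not drawn, the first 3 reached 33.3%, 20.8% and 45.8%.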

How the data were processed

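The data are peak lists from ATAC-seq of sorted leukaemia cells, with each library called by itself and none pooled. Per the submitters' processing notes, BWA, SAMtools and MACS2 were used on mm10. Versions, settings, and the handling of transposase shift, duplicates and multiply mapped reads are not given in those notes. The authors deposited a fold enrichment per peak, a linear ratio of pile-up to local background with 1 added to each. They also deposited its −log10 p-value and −log10 q-value, the latter at least 2.00 in every list. The integer score the authors deposited was not used for any result, and positions and summits came from the same lists.

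Fold and width were ranked within each list, because the lists differ in length and in median width. Pile-up and local background were recovered from fold and −log10 p in 99.8% to 99.9% of the peaks at a tolerance of 0.001. The lowest background of a list stands in for its depth. Peaks overlapping by at least 1 bp across the libraries were merged into 32730 regions. Genes, pseudogenes and promoters came from RefSeq tables of GRCm38.p6, in which all 51 symbols matched and 42 have a promoter entry. Of several annotated starts the one nearest to the median summit was used.

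Normal scores of ranks over the 9170 regions found in all 8 libraries were fitted with limma 3.58.1 (R 4.3.3), with time as a factor and all libraries in 1 fit, and Benjamini-Hochberg adjustment over all regions. The fit was tested on simulated fold scores with 1 SD for all regions. Other scripts used Python 3.11.15, pandas 2.3.3, NumPy 2.4.6 and SciPy 1.17.1. The members and lists were chosen with earlier results of these data known. Named genes are the 6 highest and 6 lowest by mean fold percentile, the 3 widest and 3 narrowest, those without a peak in all 8 libraries, those with a gained or lost region, up to 6 that share a peak with a neighbour, and, of other lists, up to 6 genes each without a peak in all 8. Members named for a role in disease or growth control, and those named for an unadjusted p, fall outside this rule. As alternatives, lists were limited to −log10 q of 5 or more or to their 14826 strongest peaks, and a cover of 50%, a window of 500 bp, ranking by −log10 p, the omission of single libraries and a replicate block were tried. The peak at the own start of Rpl4 and Rpl18 was added after seeing the data.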

Additional observations from a re-analysis of the deposited data

How the results depend on the processing

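Across 226 alternative values of 22 summary results, 211 stayed on the same side or within the spread and 15 moved, with 0 reversed. Of the 226, 125 are limma counts of member regions, which had little room to move since 0 of all regions were called in any fit. All 15 moves are thus among the rest. The median fold percentile of the ribosomal protein genes was 78.7 as deposited. It was 75.6 with peaks of −log10 q of at least 5 and 76.4 at equal list length, and both count as moved. Genes with a peak in all libraries fell from 48 to 46 in both settings. With a cover of 50%, 1 region was lost at 6h and 1 at 24h, and at equal list length 0 were gained at 12h in place of 1. Leaving out a library in turn gave 48 to 50 genes with a peak in all libraries, a median fold percentile of 78.5 to 79.0 and a median width percentile of 69.2 to 70.7. It gave 0 to 2 regions gained and 0 to 1 lost at 6h, 1 to 3 gained and 0 to 1 lost at 12h, 0 to 2 gained and 0 to 2 lost at 24h, and 0 gained and 0 to 2 lost at 24h against 6h. The gained counts at 6h and 24h reached 2, and that at 12h reached 3, without the first 0h library. The count of 2 at 6h also came without the first 6h library, and 12h gave 2 gained and 1 lost without the second 12h library. At 6h, 1 was lost without the second 6h library, and at 24h, 2 without the first 24h library. From 6h to 24h it was 2 without the first 6h library and 1 without the first 24h library. These settings leave 1 library at a time, so fewer libraries need to agree in presence. With the peak at the own start of Rpl4 and Rpl18, chosen after seeing the data, the median fold percentile was 78.7 and the median width percentile 70.8. Of 614 values for single genes, 606 were unmoved and 8 moved, at Rpl6, Rpl18, Rpl32, Rps18 and Rps19.

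The limma count of member regions past the threshold was 0 in each of the 125 alternative fits, where a time with a lone library is assumed to vary like the others. With the replicate number as a block it was also 0 for fold and for width, over the times and in each contrast. Deviations of same-numbered libraries correlated at -0.032 to 0.00623 for fold and -0.0469 to 0.0411 for width, with 0 of 6 pairs over 0.1. Same-numbered libraries thus showed no shared shift in rank. Such values cannot tell if these libraries share a source. Without the first 0h library, limma's smallest adjusted p of a member region for width fell from 0.733 to 0.0889 at 24h and from 0.904 to 0.101 at 12h against 0h. The regions at an unadjusted p under 0.05 then rose from 473 to 1539 for width and from 507 to 972 for fold at 12h. The cause was not tested. The part of depth in missing peaks was not tested either, and 2 libraries per time limit every comparison of times.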
